A study of Mus musculus with 8 samples.

Results

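Antisense RNA genes are genes that an annotation places on the strand opposite to another gene, so that the spans of both overlap. Here they are the 2403 genes on chromosomes 1 to 19, out of 48709 in the count table, whose gene type is antisense in GENCODE release M21. They were examined in 8 lung tumors of mice on a mixed B6J/129S4vJae background, 4 of them K-Ctrl and 4 K-Setd2KO. Every tumor was started by lentivirus, given into the airway by intubation, that carried Cre recombinase, Cas9 and a guide RNA, so all 8 had Cre and Cas9, and the groups differed in the guide, which was non-targeting in K-Ctrl and directed against *Setd2* in K-Setd2KO. The virus acts on the lung cells it enters, whereas each library came from a whole flash-frozen tumor that also held other cells, and the labels give no age. RNA was read as stranded poly(A) mRNA libraries.

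An antisense RNA can start back to back with its neighbor from a shared promoter region, can run into the 3′ end of a gene that is read towards it, or can lie within a gene. Some such RNAs act on the gene they overlap and many have no known function. SETD2 places the trimethyl mark on lysine 36 of histone H3 along the bodies of transcribed genes, and this mark is known for limiting transcription that starts within genes. The comparison asks which antisense RNA genes differed in level between K-Ctrl and K-Setd2KO tumors, and whether the genes they overlap differed with them.

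Of the 2403 antisense RNA genes, 2207 overlapped at least 1 gene of the opposite strand in the count table, which gave 2792 pairs with 2442 overlapped genes. The overlapped gene was protein-coding in 2485 pairs. In 1395 pairs the antisense gene lay inside the span of the overlapped gene, in 639 the pair was head-to-head (their starts overlapped), in 423 tail-to-tail (their ends overlapped), and in 335 the overlapped gene lay inside the antisense gene. Exonic bases were shared in 1569 pairs, and a shared stretch had a median of 239 bases. Antisense genes had a median of 920 exon bases in 3 exon blocks. The remaining 196 overlapped no gene in the table.

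The 3′ ends of 4 antisense RNAs are shown because the libraries were selected for poly(A) tails and because the counts themselves do not tell the strand, as described below. Each is the last 120 bases of the longest GENCODE M21 transcript, 5′ to 3′ on its own strand of GRCm38, with the polyadenylation hexamers AATAAA and ATTAAA in capitals, and none lies in an exon of a protein-coding gene. The stretches are chr2:72988488-72988607 (plus strand), chr2:73615893-73616012 (plus), chr7:44579968-44580087 (minus) and chr4:95156159-95156278 (plus).
Sp3os: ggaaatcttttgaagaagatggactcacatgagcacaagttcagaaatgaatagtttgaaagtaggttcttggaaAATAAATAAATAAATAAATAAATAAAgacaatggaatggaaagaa
Chn1os3: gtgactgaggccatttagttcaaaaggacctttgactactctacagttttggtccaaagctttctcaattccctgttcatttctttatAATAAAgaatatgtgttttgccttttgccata
Gm15396: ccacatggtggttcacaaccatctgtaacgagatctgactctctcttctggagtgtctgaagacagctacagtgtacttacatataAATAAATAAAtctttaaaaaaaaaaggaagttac
Junos: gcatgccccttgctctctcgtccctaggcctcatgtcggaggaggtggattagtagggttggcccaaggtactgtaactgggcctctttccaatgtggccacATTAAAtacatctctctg

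On the transcript strand, 1 of these 2 hexamers stood within the last 50 bases of 1076 of the 2403 antisense RNA genes (44.8%), of 53.2% of the antisense RNA genes tested below, of 53.8% of lincRNA genes tested and of 74.2% of protein-coding genes tested. It was present in 9 of the 15 antisense RNA genes that were higher in K-Setd2KO, and the end of *Irx3os* held none.

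RefSeq (GRCm38.p6) held a start region, 250 bases before to 50 after the start, for 920 of the antisense RNA genes. The regions of *Chn1os3* (chr2:73596276-73596575, plus strand) and *Gm13546* (chr2:58163724-58164023, plus strand) are shown as examples of 1 gene that was higher and 1 that was lower in K-Setd2KO, with CCAAT, or its reverse complement ATTGG, in capitals.
Chn1os3: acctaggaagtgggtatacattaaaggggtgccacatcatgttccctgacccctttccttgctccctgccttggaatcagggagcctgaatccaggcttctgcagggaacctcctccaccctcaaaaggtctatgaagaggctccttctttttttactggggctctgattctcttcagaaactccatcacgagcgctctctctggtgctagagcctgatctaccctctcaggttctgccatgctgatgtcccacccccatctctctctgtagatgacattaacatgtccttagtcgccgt
Gm13546: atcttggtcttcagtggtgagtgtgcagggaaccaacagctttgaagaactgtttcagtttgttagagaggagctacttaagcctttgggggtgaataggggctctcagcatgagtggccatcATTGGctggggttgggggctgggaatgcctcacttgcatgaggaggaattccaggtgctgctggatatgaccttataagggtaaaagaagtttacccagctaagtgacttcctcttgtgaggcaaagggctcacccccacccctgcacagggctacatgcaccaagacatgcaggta

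The search covered 3 motifs on both strands. GGGCGG was in neither region, nor was TATAAA, and CCAAT was in that of *Gm13546* alone. Over all 31396 RefSeq start regions of chromosomes 1 to 19, GGGCGG was in 36%, TATAAA in 13.6% and CCAAT in 37.3%. Over the 160 regions of antisense RNA genes tested, the shares were 42.5%, 6.25% and 32.5%. A match describes the letters only.

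Total counts ran from 5806599 to 21290402 per tumor and overlapped between the groups, so a limit of 3 counts stood at 0.138 to 0.513 CPM, counts scaled to 1000000 per library. *Setd2* itself was at 153, 138, 132 and 138 CPM in K-Ctrl replicates 1 to 4 and at 145, 121, 124 and 153 CPM in K-Setd2KO replicates 1 to 4. Its groups overlapped and its log2 fold change was -0.05 (SE 0.115, adjusted p = 0.824 by edgeR's quasi-likelihood test), so the mRNA level did not check the labels, and no antisense RNA gene of the table overlapped it. The alveolar type 2 markers summed to 50937 to 75303 CPM in K-Ctrl and 61291 to 86055 CPM in K-Setd2KO, with all 10 detected in the tumors. Macrophage markers summed to 536 to 1685 CPM in K-Ctrl and 184 to 335 CPM in K-Setd2KO, with 5 of 6 lower, and 4 of 6 leukocyte markers were lower. Past the test there were also 2 of 6 endothelial (median log2 fold change -1.68), 2 of 6 alveolar type 1 (-0.91), 1 of 5 ciliated (-1.32) and 1 of 6 fibroblast markers (-0.89), all lower, and 4 of 10 lung lineage and epithelial transcription factors (0.84), all higher. The part of these shifts in the antisense values was not tested. In bulk tumors fewer cells of a type and less RNA per cell cannot be told apart. By X- and Y-linked genes, 1 K-Ctrl and 3 K-Setd2KO tumors came from females, and no 2 libraries were copies of each other.

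Whether strand was used in counting decides what an antisense value means, and the sources used here do not give it. Among 395 genes whose exon bases all lay in exons of opposite-strand genes and in no same-strand exon, 0 had a count in any tumor, 56 antisense RNA genes included. Among 592 genes covered wholly by exons of their own strand, 19 had a count (3.21%). Of 38670 genes that shared no exonic base with another gene, 54.0% had a count, and of the 973 antisense RNA genes among them, 59.5%. Reads in exons shared with the opposite strand thus went to neither gene, which is what counting without strand gives. An antisense value here is the number of reads, from either strand, over the exon bases that no other gene shares, and where these bases lie in an intron of the overlapped gene, unspliced reads of that gene cannot be told apart from antisense RNA. Over bases outside such introns, reads of the opposite strand were counted too.

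**Figure D1:**
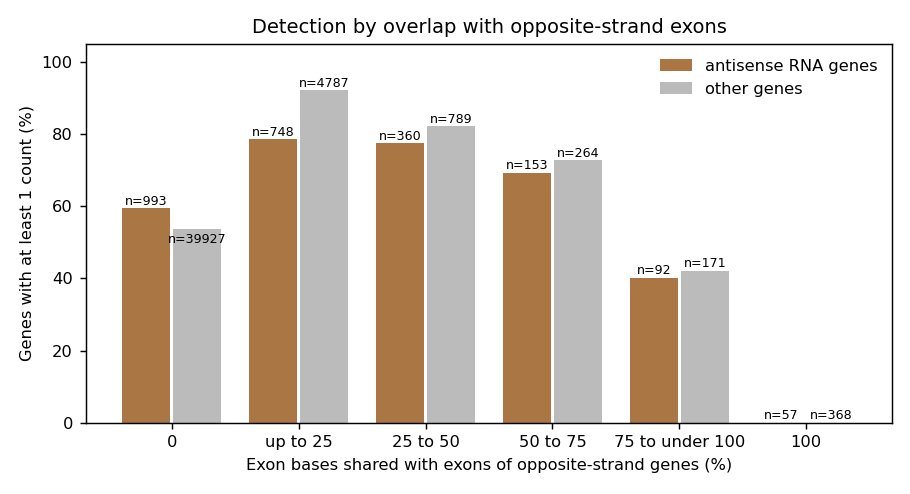
The bars give the share of genes with at least 1 count over the 8 tumors (vertical axis, percent) by the share of their exon bases that lies in exons of opposite-strand genes (horizontal axis, percent), for antisense RNA genes (brown) and other genes (grey), with the number of genes above or in each bar. Detection of antisense RNA genes was 78.6% with up to 25% of bases shared, 40.2% with 75 to under 100%, and 0 of 57 with all bases shared.

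Of the 2403 antisense RNA genes, 1600 had at least 1 count, 838 had 10 or more over the 8 tumors, and 252 passed edgeR's filter on low counts and were tested. Between 818 and 1116 were detected in K-Ctrl tumors and between 601 and 974 in K-Setd2KO tumors, where the fewest were in K-Setd2KO replicate 4, the shallowest library. Per kilobase of unshared exon, the antisense gene stood below its overlapped gene in most of the 255 pairs in which both were tested. The median was 1.29 CPM per kb for the antisense gene and 10.5 CPM per kb for the overlapped gene, and the antisense gene was the denser in 27 pairs. These included *Tug1*, at 15.9 CPM per kb beside 12.8 for *Morc2a*, a chromatin-silencing ATPase, and *A530020G20Rik*, at 25.3 beside 19.8 for *Slc44a3*, a member of the choline transporter-like family.

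The antisense RNA genes took a small share of each library. Of all counts, K-Ctrl replicates 1 to 4 had 0.120%, 0.133%, 0.144% and 0.134% in these genes. K-Setd2KO replicates 1 to 4 had 0.126%, 0.136%, 0.166% and 0.133%. The groups overlapped, and the highest value was that of K-Setd2KO replicate 3. The mean was 0.133% ± 0.00946 over the control tumors and 0.140% ± 0.0180 over the knockout tumors (SD, n = 4 each), which differed by 0.00748 percentage points that became -0.00125 without K-Setd2KO replicate 3 and -0.00876 over the 993 antisense genes that share no exonic base with the opposite strand. No test was run on this share, which is a sum over the chosen genes.

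The 6 antisense genes with the highest mean CPM, *Tug1*, *A530020G20Rik*, *BC018473*, *Brip1os*, *Panct2* and *9530082P21Rik*, took 0.0361%, 0.0435%, 0.0563% and 0.0447% of counts over the K-Ctrl tumors, by replicate, whereas the K-Setd2KO tumors had 0.0377%, 0.0276%, 0.0310% and 0.0340%. K-Setd2KO was the lower group on average, with replicate 1 inside the K-Ctrl range. All other antisense genes together took 0.0843%, 0.0896%, 0.0872% and 0.0894% in K-Ctrl and 0.0880%, 0.108%, 0.136% and 0.0988% in K-Setd2KO. There K-Setd2KO was the higher group on average, again with replicate 1 inside the K-Ctrl range.

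**Figure D2:**
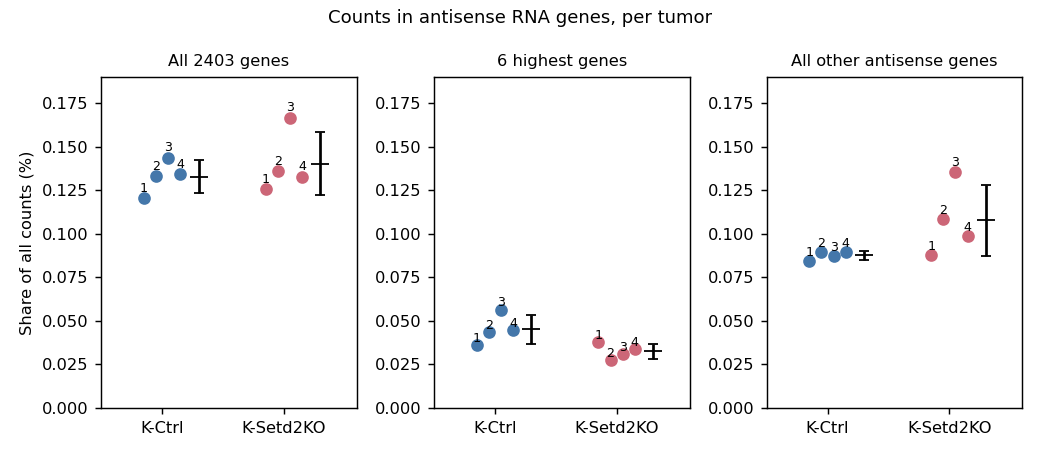
Points give each tumor's share of all counts (vertical axis, percent) in all 2403 antisense RNA genes (left), the 6 with the highest mean CPM (middle) and the rest (right), numbered by replicate, and bars give the mean and SD of 4 tumors. The groups overlap in every panel, and K-Setd2KO replicate 3 is the highest point at left (0.166%) and right (0.136%).

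None of these 6 genes passed the test. *Tug1* (taurine up-regulated 1, a broadly expressed long noncoding RNA) ran from 110 to 122 CPM in K-Ctrl and from 111 to 145 CPM in K-Setd2KO, with a log2 fold change of 0.09 (SE 0.114, edgeR adjusted p = 0.621). *BC018473*, which overlaps no gene of the table, was at 94.8, 90.1, 255 and 88.6 CPM in K-Ctrl and at 85.8, 16.7, 12.6 and 25.3 CPM in K-Setd2KO. Its groups did not overlap, K-Ctrl replicate 3 stood far above the other tumors and K-Setd2KO replicate 1 lay just under the controls. The log2 fold change was -1.90 (SE 0.643, adjusted p = 0.0849), and the adjusted p was 0.0185 without K-Setd2KO replicate 1, within a range of 0.0185 to 0.267 over the alternatives. That range holds no DESeq2 value for this gene. The adjusted p of the other 4 was 0.148 for *Panct2*, 0.178 for *Brip1os*, 0.25 for *A530020G20Rik* and 0.472 for *9530082P21Rik*.

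Antisense RNA genes past the test were mostly higher in K-Setd2KO. Of the 252 tested, 15 rose and 2 fell (edgeR's quasi-likelihood test, adjusted p under 0.05 over all 14929 genes tested), where 4.97% of all genes tested rose and 7.74% fell. As shares of the antisense genes tested these were 5.95% and 0.794%, so the share that rose was near that of all genes and the share that fell was below it. At a mean of 1 to 20 CPM, 7.39% of antisense genes tested rose and 0.985% fell. In that range 8% and 2% of lincRNA genes and 2.97% and 9.99% of protein-coding genes did so. Among 240 lincRNA genes tested, 17 rose and 6 fell, and among 12897 protein-coding genes, 658 rose and 1068 fell. The count of antisense genes that rose was 4 without K-Ctrl replicate 3, 7 without K-Ctrl replicate 1 and 7 without K-Setd2KO replicate 3. The count that fell was 0 without K-Ctrl replicate 3 (6 at an unadjusted p under 0.05), 1 without K-Ctrl replicate 1 or 2 or K-Setd2KO replicate 3, and 6 without K-Ctrl replicate 4 or K-Setd2KO replicate 2. With a term for sex 13 rose and 0 fell in edgeR, where 7 lay lower at an unadjusted p under 0.05. DESeq2 called 31 higher and 5 lower, where it called 8.89% and 12.5% of all genes. In edgeR without the sex term, 46 lay higher and 10 lower at an unadjusted p under 0.05, as did 2031 and 2433 of all 14929 genes tested. Shares over all genes are not given, here or below, for the edgeR fits with a sex term or without 1 tumor. A change of the counts there cannot be told apart from a change over all genes. The groups of all 17 genes past the edgeR test did not overlap, as was so, on the higher and the lower side, of 9.06% and 11.2% of all genes tested. Of the 252, 3 reached the filter level (0.788 CPM before TMM scaling) in K-Setd2KO tumors only, among them *Gm16251* and *A830036E02Rik* of the 15, and 1 in K-Ctrl tumors only, *Gm13546* of the 2 that fell. Counts over the genes tested therefore describe them and support no difference. The counts of alternatives and ranges of adjusted p given below for single genes and pairs leave out the fit with a replicate block.

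A further description takes the 215 antisense genes with a mean of at least 1 CPM over all 8 tumors (before scaling by TMM). This filter was chosen after the data were seen. It gives both groups the same weight, but a gene can pass by its level in 1 group alone. *Chn1os3* passed with a control mean of only 0.844 CPM, and *Gm13546* with a knockout mean of only 0.241 CPM. The set is therefore not free of the difference between the groups. Of the 215 genes, 152 (70.7%) had a log2 fold change above 0, with a median of 0.34. The values were 52.6% and 0.03 over 14695 genes of all types, and 65.6% and 0.28 over 224 lincRNA genes. Protein-coding genes of 1 to 20 CPM, the range that held 206 of the 215, had a median of -0.10. In 25 antisense genes (11.6%) every K-Setd2KO tumor lay above every K-Ctrl tumor and in 7 (3.26%) below, where 9.15% and 11.3% of all genes with that mean did so. The median antisense level, after centering each gene on its mean over the tumors, was -0.19, -0.13, -0.09 and -0.04 on the log2 scale (log2 of CPM + 1) in the K-Ctrl tumors, by replicate, whereas the K-Setd2KO tumors stood at 0.00, 0.12, 0.33 and -0.02. K-Setd2KO replicate 3 was the highest, and K-Setd2KO replicate 4 lay just above the highest control. Protein-coding genes of 1 to 20 CPM were at 0.01 to 0.07 in K-Ctrl and -0.11 to -0.06 in K-Setd2KO on the same scale. Depth and the share of other cells differed between tumors too, and their part in this was not tested.

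By layout, with the same mean level, 69 of 87 head-to-head antisense genes had a log2 fold change above 0 (median 0.51), as did 46 of 66 in tail-to-tail pairs (0.28), 40 of 67 inside the overlapped gene (0.25) and 21 of 35 that enclose it (0.28). In pairs with both genes tested, the overlapped genes had medians of 0.10 over 91 head-to-head pairs, 0.09 over 69 tail-to-tail pairs, 0.13 over 74 with the antisense gene inside and 0.22 over 21 with the overlapped gene inside. By where the unshared exon bases lie, 35 of 45 antisense genes with all of them outside opposite-strand genes were above 0 (median 0.50), as were 71 of 97 with some in an intron (0.34) and 46 of 73 with all in introns (0.25). No test compared these classes.

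**Figure D3:**
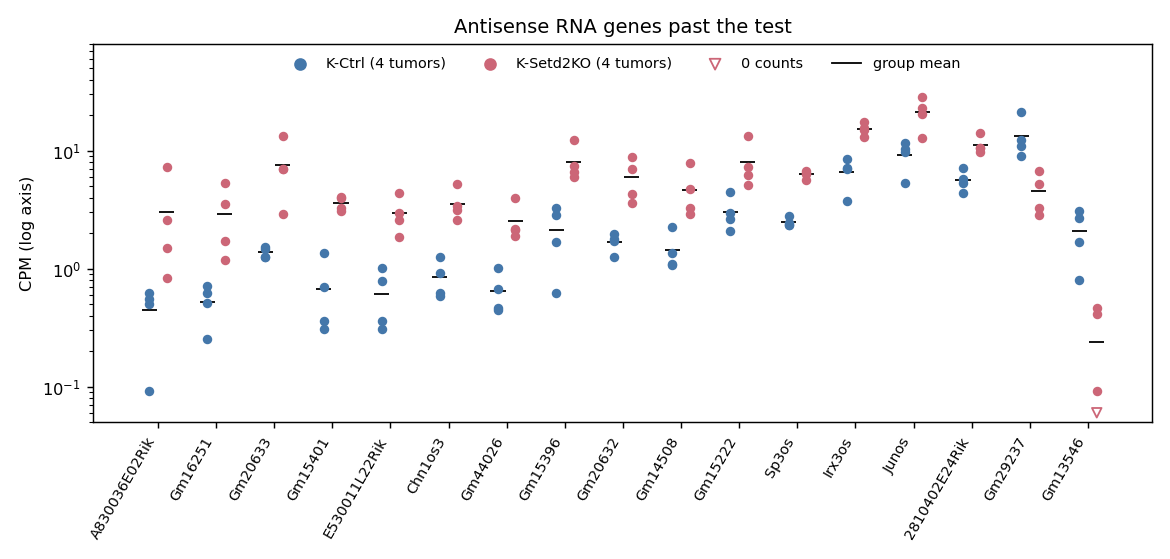
Each point is the CPM of 1 tumor (vertical axis, log scale) for the 17 antisense RNA genes past the test (horizontal axis, ordered by log2 fold change), with K-Ctrl in blue, K-Setd2KO in red, a black line at the group mean and a triangle for a tumor with 0 counts. The groups do not overlap in any of the 17, and all 15 that rose had means under 10 CPM in K-Ctrl.

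Of 31 tested antisense genes with a name in os or as, 4 rose (12.9%, beside 4.97% of all genes and 5.95% of all antisense genes tested): *Sp3os*, *Chn1os3*, *Irx3os* and *Junos*. With a mean of at least 1 CPM, 16 of 25 genes with such a name (64.0%) had a log2 fold change above 0, where 70.7% of all antisense genes did. *Sp3os* (chromosome 2, 72979424 to 72988677, plus strand) is head-to-head with *Sp3*, which encodes a zinc-finger transcription factor that binds GC-rich promoters. It was at 2.34, 2.35, 2.82 and 2.41 CPM in K-Ctrl and at 6.42, 6.27, 6.74 and 5.65 CPM in K-Setd2KO. The groups did not overlap, and each lay in a narrow range. The log2 fold change was 1.33 (SE 0.229, adjusted p = 0.0104), the call held in all 16 alternatives without the replicate block, and 8.05% of the counted bases lay in introns of the opposite strand. *Sp3* had means of 147 ± 21.9 CPM and 169 ± 27.4 CPM (SD, n = 4 each), with overlapping groups and an adjusted p of 0.426.

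*Chn1os3* (chromosome 2, 73596526 to 73616012, plus strand), whose 3′ end and start region are shown above, runs tail-to-tail into *Chn1*, the gene of chimaerin 1, a GTPase-activating protein for Rac. It was at 0.616, 0.588, 0.923 and 1.25 CPM in K-Ctrl and at 3.13, 3.37, 5.17 and 2.57 CPM in K-Setd2KO. The lowest K-Setd2KO tumor stood above the highest control, with 7 to 20 counts per tumor in K-Ctrl and 15 to 61 in K-Setd2KO. Its log2 fold change was 2.07 (SE 0.395, adjusted p = 0.0135), and the call held in all 15 alternatives run on it without the replicate block. *Chn1* went the other way in level, at 15.6, 11.5, 10.8 and 9.91 CPM in K-Ctrl and 5.75, 9.87, 4.61 and 3.08 CPM in K-Setd2KO, without overlap but short of the threshold (log2 fold change -1.02, SE 0.341, adjusted p = 0.0803). Of the counted bases of *Chn1os3*, 70.4% lay in introns of the opposite strand.

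*Irx3os* (chromosome 8, 91800415 to 91807539, plus strand) is head-to-head with *Irx3*, which encodes an Iroquois homeobox transcription factor. It was at 3.75, 6.98, 7.16 and 8.48 CPM in K-Ctrl and at 13.1, 15.7, 14.95 and 17.6 CPM in K-Setd2KO, and the groups did not overlap. The log2 fold change was 1.22 (SE 0.258, adjusted p = 0.0186), and the adjusted p was 0.0517 without K-Ctrl replicate 3 and 0.0536 with a term for sex, the highest of a range that began at 0.000176. None of its counted bases lay in an intron of the opposite strand. *Irx3* was at 80.8 ± 23.0 and 110 ± 29.2 CPM (SD, n = 4 each; adjusted p = 0.239).

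*Junos* (chromosome 4, 95051534 to 95167318, plus strand) is head-to-head with *Jun*, which encodes a subunit of the transcription factor AP-1. It was at 5.36, 9.66, 11.6 and 10.3 CPM in K-Ctrl and at 12.8, 28.7, 22.8 and 20.5 CPM in K-Setd2KO, where replicate 1 lay close to the controls. The log2 fold change was 1.20 (SE 0.302, adjusted p = 0.0338). It missed the threshold in limma voom, with the sex term, and without any 1 tumor other than K-Setd2KO replicate 1, at adjusted p-values of 0.0505 to 0.0784 within a range that began at 0.00256. *Jun* itself ran from 84.0 to 207 CPM in K-Ctrl and from 88.1 to 185 CPM in K-Setd2KO, with an adjusted p of 0.734.

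Among the antisense genes with catalog names, *E530011L22Rik* (chromosome 9, 121756640 to 121759943, minus strand) meets *Nktr*, the gene of a cyclophilin-related protein of natural killer cells, tail-to-tail. It was at 0.308, 1.01, 0.785 and 0.357 CPM in K-Ctrl and at 1.85, 2.98, 4.34 and 2.57 CPM in K-Setd2KO, without overlap. Its log2 fold change was 2.23 (SE 0.489, adjusted p = 0.0214), with adjusted p-values of 0.0563 to 0.0589 without K-Ctrl replicate 1, K-Ctrl replicate 3 or K-Setd2KO replicate 3 and a range that began at 0.000544. *Nktr* was at 185 ± 17.8 and 178 ± 11.8 CPM (SD, n = 4 each; adjusted p = 0.777), and no counted base of *E530011L22Rik* lay in an intron of the opposite strand. Its counted bases lie just beyond the 3′ end of *Nktr*, and reads from the *Nktr* strand there cannot be told apart from its own RNA. *2810402E24Rik* (chromosome 14, 20641009 to 20644048, plus strand), which overlaps no gene of the table, was at 5.29, 7.14, 4.39 and 5.71 CPM in K-Ctrl and at 9.81, 10.5, 14.0 and 10.4 CPM in K-Setd2KO. Its log2 fold change was 0.99 (SE 0.226, adjusted p = 0.0243), and it missed the threshold with the sex term and without K-Ctrl replicate 1, K-Ctrl replicate 3 or K-Setd2KO replicate 3 (adjusted p 0.0530 to 0.0771, in a range from 0.00069).

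*Gm20633* and *Gm20632* on chromosome 3 each enclose a copy of the same histone gene, *Hist2h2aa1* and *Hist2h2aa2*, which encode histone H2A and are near-identical, so reads of this region may be split between copies and both values are uncertain. *Gm20633* was at 1.25 to 1.52 CPM in K-Ctrl and 2.93 to 13.3 CPM in K-Setd2KO (log2 fold change 2.44, SE 0.443, adjusted p = 0.0122). *Gm20632* was at 1.25 to 1.96 CPM and 3.59 to 8.86 CPM (1.83, SE 0.362, adjusted p = 0.0151; 0.0517 without K-Ctrl replicate 3, in a range from 6.97e-05 without the replicate block). Both histone genes had 0 counts in every tumor, and all of their exon bases lie in antisense exons.

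Both genes passed their own test in the pairs described next. *Gm15401* (chromosome 6, 72629288 to 72637717, plus strand) lies inside *Tcf7l1*, which encodes a transcription factor of the TCF/LEF family that acts in Wnt signaling. It was at 0.308, 1.34, 0.692 and 0.357 CPM in K-Ctrl and at 3.95, 3.06, 4.06 and 3.25 CPM in K-Setd2KO. The groups did not overlap, and the log2 fold change was 2.41 (SE 0.485, adjusted p = 0.016; 0.0539 without K-Ctrl replicate 3, the highest of a range from 4.08e-05). *Tcf7l1* rose, with group means of 36.0 ± 13.3 and 94.0 ± 32.6 CPM (SD, n = 4; fitted log2 difference 1.38, adjusted p = 0.0211), as did *Gm37969*, another gene on that strand (1.86, adjusted p = 0.0221). All counted bases of *Gm15401* lay in introns of the opposite strand.

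*Gm16251* (chromosome 7, 19920729 to 19927607, plus strand) is head-to-head with *Pvr*, the gene of the poliovirus receptor, a cell adhesion protein. It was at 0.616, 0.252, 0.508 and 0.714 CPM in K-Ctrl and at 1.18, 5.28, 3.51 and 1.71 CPM in K-Setd2KO, with 3 to 11 counts per control tumor and 48.5% of its counted bases in introns of the opposite strand. The log2 fold change was 2.47 (SE 0.568, adjusted p = 0.0252), and it missed the threshold in limma voom and without K-Ctrl replicate 1, 2 or 3 or K-Setd2KO replicate 3 (adjusted p 0.0624 to 0.0780, in a range from 0.00119). *Pvr* rose, with group means of 63.7 ± 10.7 and 136 ± 24.0 CPM (SD, n = 4; fitted log2 difference 1.10, adjusted p = 0.00807). *Gm14508*, named after its values were seen, meets *Prkab1*, the gene of a beta subunit of the energy sensor AMPK, tail-to-tail and was at 1.07 to 2.26 CPM and 2.91 to 7.80 CPM (1.67, SE 0.426, adjusted p = 0.0347), and *Prkab1* rose from 67.8 ± 12.0 to 133 ± 30.5 CPM (0.97, adjusted p = 0.0154). The call on *Gm14508* was lost with the sex term and without K-Ctrl replicate 1, 2 or 4 or K-Setd2KO replicate 2 or 3 (adjusted p 0.0683 to 0.0896, in a range from 0.00344), and 95.1% of its counted bases lay in introns of the opposite strand.

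The pair that fell together was *Gm13546* (chromosome 2, 58164001 to 58177063, plus strand) and *Cytip*, the gene of a cytohesin-interacting protein of blood cells, inside which it lies. *Gm13546* was at 2.71, 1.68, 3.09 and 0.803 CPM in K-Ctrl and at 0.411, 0.459, 0.0923 and 0 CPM in K-Setd2KO, where the counts were 8, 6, 1 and 0. Its log2 fold change was -2.88 (SE 0.702, adjusted p = 0.0302), and it missed the threshold with the sex term and without K-Ctrl replicate 2 or K-Setd2KO replicate 1 or 3 (adjusted p 0.0528 to 0.0777, in a range from 0.00216). It fell below the filter on low counts, and so had no call, without K-Ctrl replicate 1 or 3. *Cytip* fell from 225 ± 93.9 to 49.2 ± 12.2 CPM (SD, n = 4 each; -2.19, SE 0.336, adjusted p = 0.00824). All counted bases of *Gm13546* lay in introns of *Cytip*, and the macrophage and leukocyte markers given above were lower in the same tumors, whose part in these values was not tested.

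The other antisense gene that fell was *Gm29237* (chromosome 11, 30106394 to 30108120, plus strand), which lies inside *Sptbn1*, the gene of a beta-spectrin of the membrane skeleton. It was at 21.3, 8.99, 12.3 and 11.0 CPM in K-Ctrl and at 2.82, 5.201, 6.74 and 3.25 CPM in K-Setd2KO (log2 fold change -1.57, SE 0.367, adjusted p = 0.0263). The call was lost with the sex term and without K-Ctrl replicate 1 or 3 or K-Setd2KO replicate 1 or 4 (adjusted p 0.0562 to 0.0695, in a range from 0.000739). All of its counted bases lay in introns of the opposite strand. *Sptbn1* was at 1592 ± 689 and 917 ± 218 CPM with overlapping groups (SD, n = 4 each; -0.80, adjusted p = 0.109).

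The remaining antisense genes that rose were *Gm44026*, *Gm15222* and *A830036E02Rik*, the last 2 named after their values were seen. *Gm44026* lies inside *Wipf3*, which encodes a protein that binds regulators of actin, and was at 0.446 to 1.01 CPM in K-Ctrl and 1.88 to 3.97 CPM in K-Setd2KO (log2 fold change 1.97, SE 0.433, adjusted p = 0.0215). It missed the threshold without K-Ctrl replicate 1 or 3 or K-Setd2KO replicate 3 (adjusted p 0.0575 to 0.0765, in a range from 0.0011), and *Wipf3* had an adjusted p of 0.355. All counted bases of *Gm44026* and of *Gm15222* lay in introns of the opposite strand, as did 42.9% of those of *A830036E02Rik*. *Gm15222*, inside *Bmp4*, the gene of a secreted bone morphogenetic protein, was at 2.09 to 4.46 and 5.13 to 13.4 CPM (1.40, SE 0.375, adjusted p = 0.0401), with 5 of 16 alternatives besides the replicate block losing the call, those without K-Ctrl replicate 1, 2 or 3 or K-Setd2KO replicate 1 or 3 (adjusted p 0.0656 to 0.110, in a range from 0.00377). *A830036E02Rik*, head-to-head with the keratin gene *Krt12*, was at 0.0923 to 0.625 and 0.831 to 7.27 CPM (2.81, SE 0.793, adjusted p = 0.0483). It missed the threshold in 8 of 13 alternatives, namely limma voom, a mean of at least 1 CPM, the sex term, and without any 1 K-Ctrl tumor or K-Setd2KO replicate 4 (adjusted p 0.0523 to 0.240, in a range from 0.00525), and it fell below the filter on low counts, with no call, without K-Setd2KO replicate 1 or 2.

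*Gm15401* and *Gm44026* lie on chromosome 6, where protein-coding genes of at least 1 CPM also differed in level. Their median log2 fold change was 0.32 over 663 genes, and their centered level was -0.13 to -0.15 in the K-Ctrl tumors, 0.21, 0.21 and 0.26 in K-Setd2KO replicates 1, 3 and 4 and -0.19 in K-Setd2KO replicate 2. Of 13 antisense genes there with that mean, 12 had a log2 fold change above 0 (median 0.94). In K-Setd2KO replicate 2, the tumor whose chromosome 6 genes were not raised, *Gm15401* was at 3.06 CPM and *Gm44026* at 2.14 CPM, both above every control. The part of the chromosome in these values was not tested, and without its genes 13 antisense genes rose.

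Of the 2442 overlapped genes, 1631 were tested, and 93 rose (5.70%) and 187 fell (11.5%), beside the 4.97% and 7.74% of all genes. The count that rose was 32 without K-Ctrl replicate 3, 38 without K-Ctrl replicate 1, and 48 without K-Ctrl replicate 2 or K-Setd2KO replicate 3, and the count that fell was 88 without K-Ctrl replicate 3, 97 without K-Setd2KO replicate 3 and 114 without K-Ctrl replicate 1. The median log2 fold change was -0.05 over the 1623 with a mean of at least 1 CPM. Most of these lie beside an antisense gene that was not tested. Among the 252 tested genes that overlap a tested antisense gene, 14 rose (5.56%) and 8 fell (3.17%). With a mean of at least 1 CPM, 163 of 253 such genes (64.4%) had a log2 fold change above 0, with a median of 0.12, beside 52.6% of all genes and 70.7% of antisense genes. In 10.7% of them every K-Setd2KO tumor lay above every K-Ctrl tumor and in 6.32% below.

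In the 255 pairs with both genes tested, the 2 log2 fold changes had the same sign in 166 (65.1%), both above 0 in 130 and both below in 36. The antisense value was above 0 in 185 pairs and the overlapped gene's in 164, and these shares alone give the same sign in 56.5% of pairs. The sign was the same in 61.8% of all 1692 opposite-strand pairs and in 61.2% of the 1437 with no antisense RNA gene, so 65.1% was near that background. In 55 pairs the antisense gene was above 0 and the overlapped gene below, and in 34 the reverse. Across pairs, Pearson's r was 0.43 and Spearman's rho 0.34. In the 67 pairs without a shared exonic base the values were 0.63 and 0.51, and in the 69 tail-to-tail pairs 0.18 and 0.22. Pairs are not independent replicates, all come from the same 8 libraries, and unspliced reads of the overlapped gene can enter both values of a pair. Both genes passed their own test in 6 pairs (2.35%), 5 of them in the same direction, beside 36 of all 1692 opposite-strand pairs (2.13%), 31 of them in the same direction. Of the 5, 2 share *Gm15401*, and 2 rest on *Gm16251* and *Gm13546*, which reached the filter level in 1 group only.

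**Figure D4:**
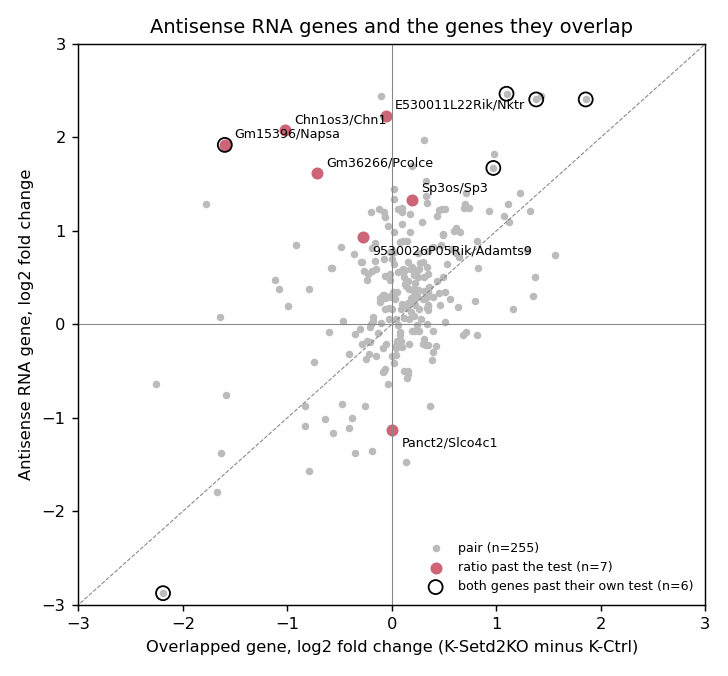
Each point is a pair of an antisense RNA gene and a gene it overlaps (n = 255), with the log2 fold change of the overlapped gene on the horizontal axis and of the antisense gene on the vertical axis, both K-Setd2KO minus K-Ctrl, and a dashed line of equal change. Red points are the 7 pairs whose ratio differed between the groups and circled points the 6 pairs with both genes past their own test, of which *Gm15396* and *Napsa* lie in the upper left.

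The ratio of antisense to overlapped gene was then taken within each tumor and tested between the groups. The test was limma on the difference of log2 CPM with a prior count of 2, adjusted over all 1692 opposite-strand pairs of the table, of which 6.44% passed. Of the 255 antisense pairs, 7 passed (2.75%), a share below that background. In 6 of the 7 the antisense gene gained on its overlapped gene in K-Setd2KO. At an unadjusted p under 0.05, 27 of 33 pairs had the antisense gene gaining. The share of all opposite-strand pairs at that p is not given. Over the 255 pairs the median difference of the log2 ratio was 0.17, so the pairs as a whole leaned the same way. The count was 4 without K-Ctrl replicate 2 or K-Setd2KO replicate 3.

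The largest of these differences was between *Gm15396* and *Napsa*, which meet tail-to-tail. *Napsa* encodes napsin A, an aspartic protease of alveolar type 2 cells that serves as a marker of lung adenocarcinoma. *Gm15396* (chromosome 7, 44579968 to 44590624, minus strand) was at 0.616, 3.28, 2.86 and 1.70 CPM in K-Ctrl and at 7.45, 5.97, 6.55 and 12.3 CPM in K-Setd2KO. *Napsa* was at 311, 308, 311 and 436 CPM in K-Ctrl and at 85.5, 139, 185 and 40.6 CPM in K-Setd2KO. Neither gene's groups overlapped, and K-Setd2KO replicate 4 had both the highest *Gm15396* and the lowest *Napsa*. *Gm15396* rose (log2 fold change 1.92, SE 0.489, adjusted p = 0.0348) and *Napsa* fell (-1.60, SE 0.399, adjusted p = 0.0338). The ratio differed by 3.81 on the log2 scale (SE 0.686, limma adjusted p = 0.00827) and held in all 12 alternatives run without the replicate block, whereas *Gm15396* alone missed the threshold with the sex term and without K-Ctrl replicate 3 or 4 or K-Setd2KO replicate 1, 3 or 4 (edgeR adjusted p 0.0605 to 0.0885, in a range from 0.00126).

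Of the exon bases of *Gm15396*, 46.1% are shared with *Napsa* and were not counted, and 90.1% of the rest lie in introns of the opposite strand. Unspliced *Napsa* reads there cannot be told apart from *Gm15396* RNA. Of the 10 alveolar type 2 markers, 1 rose and 1, *Napsa*, fell.

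For *Chn1os3* and *Chn1* the ratio differed by 3.03 (SE 0.466, adjusted p = 0.00258) and held in all 11 alternatives without the replicate block. The log2 ratio was -3.85, -3.46, -2.98 and -2.57 in K-Ctrl and -0.78, -1.42, 0.15 and -0.22 in K-Setd2KO, so that in K-Setd2KO replicate 3 the antisense gene had more CPM than *Chn1*. For *E530011L22Rik* and *Nktr* it differed by 2.12 (SE 0.433, adjusted p = 0.0104) and held in all 11. For *Sp3os* and *Sp3* it differed by 1.09 (SE 0.281, adjusted p = 0.0358), with log2 ratios of -5.93 to -5.44 in K-Ctrl and -4.87 to -4.38 in K-Setd2KO. That call was lost with the sex term and without K-Ctrl replicate 1, 2 or 3 or K-Setd2KO replicate 1, 2 or 3 (adjusted p 0.0616 to 0.0917, in a range from 0.0274).

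*Gm36266*, with all counted bases in introns of the opposite strand, gained on *Pcolce*, the gene of a protein that enhances procollagen processing, by 2.45 (SE 0.572, adjusted p = 0.0206). Its own test did not pass (log2 fold change 1.62, SE 0.711, adjusted p = 0.164), and neither did that of *Pcolce* (-0.71, adjusted p = 0.293). The ratio missed the threshold without K-Ctrl replicate 1, 2 or 3 or K-Setd2KO replicate 3 (adjusted p 0.0508 to 0.0612, in a range from 0.00384). *Panct2* lost ground to *Slco4c1*, the gene of an organic anion transporter with which it is head-to-head, by -1.10 (SE 0.253, adjusted p = 0.0185; 0.0641 without K-Ctrl replicate 2 and 0.0510 without K-Setd2KO replicate 3, in a range from 0.00304). *Panct2* was at 16.5, 71.5, 35.3 and 61.0 CPM in K-Ctrl and 31.9, 12.7, 13.3 and 26.0 CPM in K-Setd2KO, so that the level overlapped between groups where the ratio did not.

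The seventh pair, *9530026P05Rik* and *Adamts9*, which encodes a secreted metalloprotease, was named after its values were seen. It differed by 1.18 (SE 0.317, adjusted p = 0.0432), lies on chromosome 6 and lost its call without any 1 of the K-Ctrl tumors or K-Setd2KO replicate 3 or 4 (adjusted p 0.0554 to 0.102, in a range from 0.0166).

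**Figure D5:**
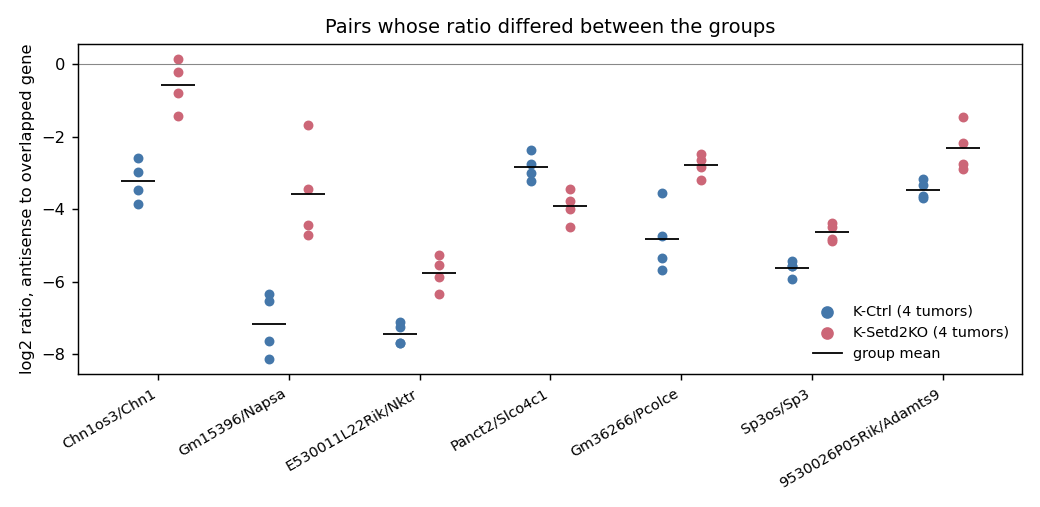
Points give the log2 ratio of the CPM of an antisense RNA gene to that of the gene it overlaps, each with 0.5 CPM added, in every tumor (vertical axis) for the 7 pairs past the test (horizontal axis), with K-Ctrl in blue, K-Setd2KO in red and a line at each group mean. The groups do not overlap in any of the 7, and *Panct2* to *Slco4c1* is the 1 pair that is lower in K-Setd2KO.

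Antisense RNA genes across cell type markers and lung transcription factors were few. Of the 16 pairs with a marker gene, 6 had both genes tested, and *Gm15396* was the 1 antisense gene among them past the test. *Gm26973*, head-to-head with *Nkx2-1*, the lung lineage transcription factor, was at 20.4, 24.96, 21.2 and 31.0 CPM in K-Ctrl and at 13.3, 34.5, 32.1 and 28.8 CPM in K-Setd2KO. Its groups overlapped (log2 fold change 0.15, SE 0.286, adjusted p = 0.757), as did those of *Nkx2-1* (0.35, SE 0.259, adjusted p = 0.405), and both genes were lowest of the 4 K-Setd2KO tumors in replicate 1. *Gm26642*, which encloses *Elf3*, an epithelial transcription factor, had an adjusted p of 0.688, while *Elf3* rose (1.35, SE 0.169, adjusted p = 0.0056). The difference between these 2 genes was not past its test (log2 ratio -1.18, limma adjusted p = 0.124).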

How the data were processed

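The authors deposited 1 table of raw counts per gene for the 8 tumors, with no normalization, together with gene lengths in exon bases, a unit of another kind. Per the labels' processing notes, STAR 2.5.2b, featureCounts 1.5.0-p1 and GRCm38.p4 were used, and strand use in counting is not given in the sources used here. The labels call the samples both tumors and cell lines, and they are called tumors here. An allele that all 8 tumors share is not reported here. Nothing says whether tumors of a group came from separate animals, so p-values measure the spread between these tumors.

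Gene types came from GENCODE M21, in which 99.3% of 48709 identifiers were found, and 95.7% of the antisense genes had the same span there. Coordinates are those of the deposited table, 1-based. Overlap means that spans on opposite strands share at least 1 base. The antisense genes and lists were chosen with earlier results of these data known.

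Genotype was tested in R 4.3.3 with edgeR 4.0.16 (filterByExpr, TMM, robust quasi-likelihood) and Benjamini-Hochberg adjustment over all 14929 genes, with a threshold of 0.05. Standard errors are the absolute log2 fold change over the square root of F. Pair ratios used limma 3.58.1. Alternatives were DESeq2 1.42.0, limma voom, other scalings and filters, a sex term, a replicate block and leaving out each tumor. CPM limits and floors cover counting error only. Pairs of tumors of a group differed by a chi-square of at least 30.5 per degree of freedom. The scripts were tested on simulated data.

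Named antisense genes were the 10 with the smallest p-values that rose and that fell, the 6 with the highest mean CPM, the antisense genes of the 6 pairs with the smallest ratio p, those past the test with names ending in os or as or overlapping a marker gene, and *Setd2*. Others were named after their values were seen.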

Additional observations from a re-analysis of the deposited data

Results flagged for a closer look

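In 52 groups of 4 tumors (24 named antisense genes, *Setd2* and the share of counts, in both groups), 4 held a tumor far from the other 3, where chance gives about 1 in 20, or 2.6. *BC018473* was at 255 CPM in K-Ctrl replicate 3 beside 88.6 to 94.8 CPM in the other controls. *Sp3os* was at 2.82 CPM in the same tumor beside 2.34 to 2.41 CPM. *Gm44026* was at 3.97 CPM in K-Setd2KO replicate 3 beside 1.88 to 2.16 CPM, and *2810402E24Rik* at 14.0 CPM in that tumor beside 9.81 to 10.5 CPM. Of the 15 antisense genes that rose, 9 had their highest K-Setd2KO value in replicate 3, 4 in replicate 2 and 2 in replicate 4.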

How the results depend on the processing

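Of the antisense genes, 15 rose and 2 fell. DESeq2 gave 31 and 5, all 17 of the edgeR calls among them (DESeq2 called 8.89% of all genes higher and 12.5% lower). Over genes sharing no exonic base the counts were 5 and 1. Those that fell were 1 with at least 10 counts in every tumor, 4 with no filter and 0 with a sex term. Leaving out 1 tumor gave 4 to 19 that rose and 0 to 6 that fell. Of the overlapped genes, 93 rose and 187 fell. DESeq2 gave 142 and 282, a sex term 60 and 108, genes sharing no exonic base 40 and 81, and leaving out 1 tumor 32 to 106 and 88 to 208. The 7 pair ratios became 4 under that minimum of 10 counts and 2 without shared exonic bases, and 4 to 10 without 1 tumor. Leaving out chromosome 6 kept all of these counts within 1.5 times. That count, like those over genes or pairs sharing no exonic base, is a part of the main calls with no new fit, so it does not check them. RLE and upper-quartile scaling, limma voom and a mean of at least 1 CPM, the last chosen after seeing the data, were run on the gene counts and kept those within 1.5 times. The difference in share of counts moved by less than the SD of the K-Setd2KO tumors (0.0180) in every alternative but changed sign, from 0.00748 to -0.00876 percentage points over genes sharing no exonic base, and ran from -0.00125 to 0.0123 without 1 tumor. *Setd2* did not pass in any.

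Replicate numbers did not pair the tumors: same-numbered tumors correlated at -0.07, -0.03, 0.19 and -0.02. With a replicate block 8 antisense genes rose and 1 fell, 54 overlapped genes rose and 153 fell, and 9 pair ratios passed. With it *Gm20632*, *Gm44026*, *2810402E24Rik*, *Gm16251*, *Gm29237*, *Gm15396*, *Gm14508*, *Gm15222* and the ratio of *Sp3os* to *Sp3* missed the threshold (adjusted p 0.0537 to 0.0930).

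Over named genes and pairs, 401 alternative values kept their side of the threshold, 90 no longer passed, 4 newly passed and none changed direction. The 401 include values of results that had not passed in the main fit, such as 17 for *Tug1*, so they do not count calls that held. Of the 4 that newly passed, 3 belong to the ratio of *Gm45767* to *Pllp*, a pair not described above. Depth limits the low genes: 3 counts stood at up to 0.513 CPM.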
